A study of Bos taurus with 129 samples.

Results

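The genes described here were 9 genes listed as markers of B cells, the lymphocytes that carry immunoglobulin on their surface: MS4A1, CD79A, CD79B, CR2, BLK, BANK1, STAP1, FCRLA and PAX5. They were chosen by symbol after their levels by day, disease label and supplement in these same libraries had been seen, so their levels in those comparisons are given as a description, with no test. The levels of BLK did not follow those of the other 8 in these libraries, so the medians of the 9 in the main comparisons are also given without BLK. All 9 were found among 32395 rows of the count table, and all 9 were among the 18937 genes that passed the filter on low counts.

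RNA from whole blood of 26 crossbred beef steers (Bos taurus) was sequenced on day 0 (enrollment) and on days 13, 28, 45 and 60 after it, giving 59 libraries from healthy and 70 from BRD cattle with total counts between 31613545 and 61692136 and a median of 44268685. Every animal received a source of copper, cobalt, manganese and zinc. INR cattle received these minerals as sulfates, AAC cattle received them complexed to amino acids, and COMBO cattle received the complexed minerals together with an oral drench given before shipment, on day 0 and alongside any treatment for illness. Supplemented feeding began at enrollment, so the day 0 samples preceded it, although the first drench of the COMBO cattle came earlier. The BRD label is given to cattle whose disease entry is Yes, taken as diagnosed with or treated for bovine respiratory disease within the 60 days. The labels do not give the day of diagnosis, so it cannot be said from them whether an animal was ill when it was bled. There were 12 healthy cattle, 4 on each supplement, and 14 BRD cattle, with 4 on AAC, 3 on COMBO and 7 on INR, and healthy AAC animal 48 had no library for day 13. All cattle were vaccinated and dewormed on day 0 and vaccinated again between the bleeds of day 13 and day 28, so day and vaccination cannot be told apart. AAC cattle of both labels came from pens 2 and 8, whereas the healthy COMBO cattle came from pen 5 and the BRD COMBO cattle from pen 6, so that pen and label cannot be told apart in COMBO. These are the pens at enrollment, since the methods of the study state that the steers were moved between pens through the trial.

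B cells recognise antigen through a receptor made of membrane immunoglobulin and a signalling pair of chains, and kinases and adaptor proteins relay its signal. The transcription factor PAX5 holds cells in the B lineage, and its targets include several of the genes named here. On becoming antibody-secreting plasma cells, B cells lose most of this programme. In bulk blood, fewer B cells and less of an RNA in each B cell cannot be told apart, and a share of all RNA such as CPM, the count of a gene scaled to the size of its library, also moves with what the other blood cells contribute.

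A few libraries stood apart and are named before the comparisons. At day 0, healthy COMBO animal 6 had the lowest average of the 9 genes of all day 0 libraries, with a mean z-score of -2.65, and the average of the same animal at day 60 was 0.28. BRD AAC animal 21 had the lowest mean over its days, -1.86, followed by BRD AAC animal 9 at -1.02. BRD INR animal 43 went from -0.19 at day 0 to 1.80 at day 60, where its T cell markers summed to 1172 CPM and its monocyte markers to 924 CPM, the lowest sums of any library. The library of BRD INR animal 40 at day 60 was the one whose RNA the methods of the study single out for a low RNA integrity number.

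The surface genes are given first. MS4A1, which encodes the surface protein CD20, had a mean of 695 CPM with an SD of 35.3% of the mean over all libraries. In healthy cattle at day 0 it had a lowest value of 210, a median of 629 and a highest of 1111 CPM (n = 12), and in BRD cattle 254, 611 and 1163 CPM (n = 14). At day 60 the corresponding values were 394, 728 and 1159 CPM in healthy cattle and 254, 729 and 1572 CPM in BRD cattle. The ranges of the disease labels overlapped on both days. CD79A and CD79B encode the signalling chains of the B cell receptor. CD79A was the steadiest of the 9, with an SD of 22.4% of its mean, and its medians at day 0 were 599 CPM in both healthy and BRD cattle. CD79B had medians of 246 CPM in healthy and 249 CPM in BRD cattle at day 0, with ranges from 69.35 to 534 and from 112.1 to 471 CPM. CR2, a receptor for complement fragments that lowers the threshold of B cell activation, had medians of 107.1 and 93.2 CPM at day 0 and 186 and 127.4 CPM at day 60 in healthy and BRD cattle.

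Among the signalling genes, BANK1 encodes a scaffold protein that couples the B cell receptor to kinases. Its medians at day 0 were 202 CPM in healthy cattle (67.4 to 368) and 196 CPM in BRD cattle (82.4 to 331), and at day 60 they were 279 and 216 CPM. STAP1, an adaptor protein, had means between 28.61 and 31.82 CPM on every day in both labels. FCRLA, an intracellular protein related to Fc receptors, varied the most, with an SD of 54.9% of its mean and a range at day 60 from 25.4 to 265 CPM in BRD cattle. PAX5 had medians of 257 CPM in healthy and 264 CPM in BRD cattle at day 0. BLK, a kinase of the Src family named for its place in B cells, had medians of 87.5 CPM (59.8 to 135) in healthy and 112.5 CPM (65.7 to 192) in BRD cattle at day 0. It was the only one of the 9 whose mean was higher in BRD cattle on all 5 days, and its ranges overlapped on each.

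**Figure D1:**
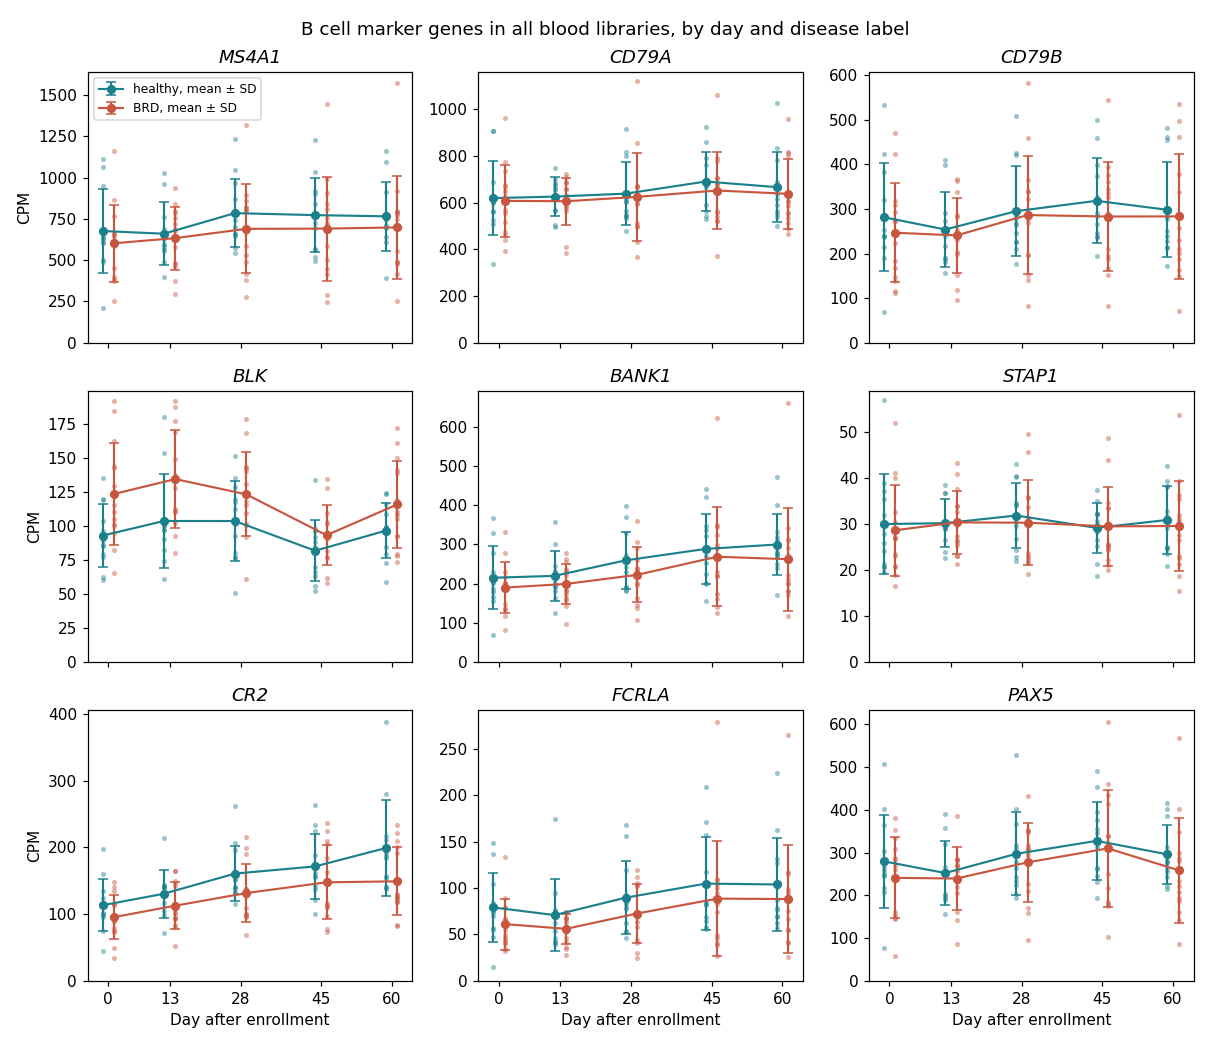
CPM of each of the 9 marker genes (y axis, starting at 0) against day after enrollment (x axis) in healthy (teal) and BRD (red) cattle. Small points are libraries, and large points with bars are the mean ± SD over 11 or 12 healthy and 14 BRD animals. The labels overlap in every panel, BLK alone has its BRD means above the healthy means throughout, and the means of CR2 and BANK1 are higher at day 60 than at day 0.

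The question of whether cattle labelled BRD differed from healthy cattle was first put with the 3 supplements given equal weight. The median fitted log2 difference of the 9 genes, BRD minus healthy, was -0.18 at day 0, -0.17 at day 13, -0.18 at day 28, -0.18 at day 45 and -0.23 at day 60 and, without BLK, -0.19, -0.17, -0.23, -0.20 and -0.26, whereas the median over all genes tested lay between -0.0033 and 0.012. Without healthy INR animal 10 the medians of the 9 were -0.096, -0.073, -0.12, -0.096 and -0.16. BLK was the exception, at 0.41 ± 0.16 (SE) on day 0 and 0.30 ± 0.16 on day 60. FCRLA was among the lowest, at -0.32 ± 0.25 on day 0 and -0.40 ± 0.25 on day 45.

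Another 36 genes of the B lineage with counts above the filter were tested in the same fit. They comprised 11 genes of receptor signalling such as BLNK and PLCG2, 8 transcription factors such as EBF1, 11 surface receptors such as CD40 and FCRL1, and 6 further genes such as AFF3. Not all of them followed the 9 genes. Their correlation with the mean z-score of the 9 over all libraries ran from -0.282 for FCER2 to 0.966 for BCL11A, with 0.077 for BACH2 and 0.102 for IRF8. None of these 36 was called on any day by edgeR's quasi-likelihood test with Benjamini-Hochberg adjustment at a false discovery rate of 0.10, where 0.0158% of all genes were called at day 0, 0% at days 13 and 45, and 0.00528% at days 28 and 60. DESeq2 also called 0 on each day, where it called 0.518%, 0.19%, 0.211%, 0.164% and 0.158% of all genes from day 0 to day 60. At an unadjusted p below 0.05, edgeR found 4, 0, 4, 3 and 1 of them from day 0 to day 60, where 7.11%, 3.78%, 8.63%, 4.22% and 3.64% of all genes were that low. When only the pens that held both labels were used (pens 2 and 8 of AAC and pens 3 and 4 of INR), with pen as a term, the median of the 9 genes was -0.74 at day 0 and -0.52 at day 60 (-0.77 and -0.53 without BLK), and 15 of the 36 were called lower in BRD cattle at day 0. From day 0 to day 60 the counts were 15, 0, 1, 0 and 0, where 5.18%, 0.34%, 0.189%, 0.0108% and 0.0216% of all genes in that fit were called lower. The fit with pen as a term left out all COMBO cattle and the INR cattle of the remaining pen. It had no term for the animal. It was not repeated with the libraries of each day alone or with 1 animal left out. In the main fit the median of the 9 genes at day 0 was 0.84 within COMBO and -1.18 within AAC.

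The small average difference covered opposite directions in 2 of the supplements, a split that was examined after the values had been seen. In AAC cattle the BRD animals were low. At day 0, before supplemented feeding, MS4A1 in the BRD AAC animals was 254, 374, 387 and 450 CPM, and in the healthy AAC animals 607, 647, 946 and 1111 CPM. No BRD value reached a healthy value. CD79B showed the same separation, at 112.1, 116.2, 139 and 168 CPM in BRD and 214, 321, 383 and 534 CPM in healthy animals. PAX5 was 57.7, 145, 147 and 153 CPM in BRD and 254, 302, 402 and 507 CPM in healthy animals. These transcripts were thus lower in every BRD AAC animal than in any healthy AAC animal. By enrollment pen, the MS4A1 means over days of the animals from pen 2 were 265 and 499 CPM in BRD and 661 and 1106 CPM in healthy animals. For those from pen 8 they were 405 and 444 against 697 and 973 CPM. This separation within each pen follows from that over all AAC animals and adds nothing to it.

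In COMBO cattle the BRD animals were high at day 0. MS4A1 was 659, 862 and 1163 CPM in the 3 BRD COMBO animals and 210, 487, 608 and 678 CPM in the 4 healthy ones, so that the lowest BRD value lay just below the highest healthy value. CD79B was 294, 424 and 471 CPM in BRD and 69.35, 190, 239 and 240 CPM in healthy animals, and did not overlap. PAX5 was 284, 333 and 380 CPM in BRD and 76.7, 217, 248 and 261 CPM in healthy animals, also without overlap. The lowest healthy value was animal 6 for each of these genes. In INR cattle the labels overlapped for all 9 genes in the means over days. On the log2 scale, INR BRD animals lay below every healthy animal for 0.253% of all genes and above for 0.174%. The mean of MS4A1 over INR animals was 742 ± 205 CPM in BRD (SD, n = 7) and 754 ± 218 CPM in healthy cattle (SD, n = 4).

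Averaged over the days of each animal on the log2 scale, BRD AAC animals lay below every healthy AAC animal for 8 of the 9 genes, all but BLK, where 8.73% of all genes tested showed that arrangement. BRD COMBO animals lay above every healthy COMBO animal for 7 of the 9, all but BLK and STAP1, where 4.28% of all genes did. Over days 13 to 60 alone the count was 2 of the 9 in COMBO, where 2.38% of all genes did, and 7 of the 9 in AAC, where 7.23% did. In linear CPM the animal means of BANK1 and FCRLA in COMBO also overlapped. The MS4A1 mean of BRD AAC animals was 0.469 of the healthy mean (403 ± 99.48 against 859 ± 216 CPM, SD, n = 4 each), and that of BRD COMBO animals was 1.38 times the healthy mean (826 ± 66.4, n = 3, against 599 ± 45.0 CPM, n = 4). CD79B stood at 0.413 and 1.5, PAX5 at 0.436 and 1.32, and CR2 at 0.508 and 1.25 times the healthy mean in AAC and COMBO. BLK stood at 1.37 and 1.34, above the healthy mean in both supplements. The order of the 6 groups by mean MS4A1 was healthy AAC, BRD COMBO, healthy INR, BRD INR, healthy COMBO and BRD AAC, and among neighbours in this order only the last pair did not overlap in range.

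**Figure D2:**
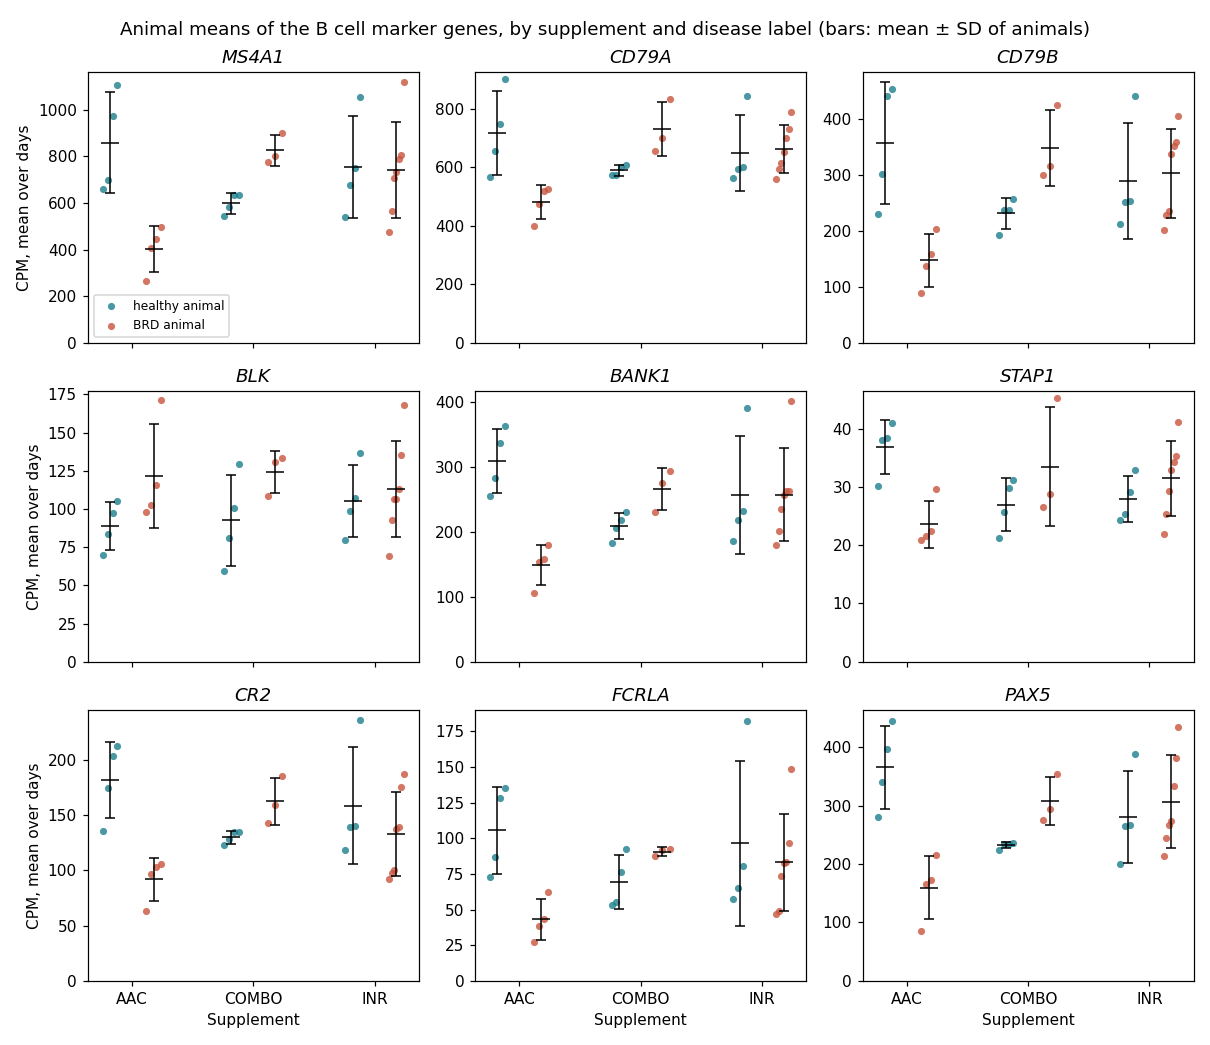
Mean CPM over the days of each animal (y axis, starting at 0) for the 9 marker genes, by supplement (x axis) and disease label. Each point is an animal (healthy teal, BRD red) and black bars are mean ± SD. BRD AAC animals lie below the healthy AAC animals in every panel but BLK, BRD COMBO animals have a higher mean than healthy COMBO animals for MS4A1 (826 against 599 CPM), and the INR labels overlap.

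From the first bleed to the last, the BRD AAC animals lay below every healthy AAC animal for 7, 4, 8, 8 and 7 of the 9 genes, where 4.9%, 5.21%, 7.77%, 5.75% and 4.59% of all genes did. The BRD COMBO animals lay above for 6, 2, 3, 1 and 0, where 6.02%, 4.69%, 4.7%, 2.18% and 2.17% of all genes did. The fitted log2 differences of CD79B within AAC were -1.44 ± 0.34 (SE) at day 0 and -1.23 ± 0.34 at day 60, while within COMBO they were 1.10 ± 0.36 and 0.52 ± 0.36. MS4A1 went from -1.18 ± 0.30 to -1.01 ± 0.30 within AAC, and from 0.85 ± 0.32 to 0.29 ± 0.32 within COMBO. PAX5 went from -1.54 ± 0.31 to -0.94 ± 0.31 within AAC and STAP1 from -0.99 ± 0.24 to -0.47 ± 0.24, while CR2 stood at -1.02 ± 0.30 and -1.07 ± 0.30. In COMBO the fitted difference was nearer 0 at day 60 than at day 0 for every marker but BLK. These changes between bleeds were not tested.

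The 36 further B lineage genes were tested in the same contrasts. Many of them follow the 9 genes across these libraries, and the contrasts were chosen for how the 9 had moved, so these calls extend the description to more genes and are not independent support for it. The fit held all libraries with 1 mean per label, supplement and day and no term for the animal, and libraries of 1 animal resembled each other, so its p-values rest on more residual degrees of freedom than the 26 animals give. The libraries of day 0, 1 per animal, were therefore also fitted alone, with 20 residual degrees of freedom. Within AAC at day 0, 19 of the 36 fell in BRD cattle and none rose, where 2.3% of all genes fell. They included the transcription factor EBF1, needed to specify B cells (-1.54 ± 0.31, adjusted p = 0.00556), the guanine nucleotide exchange factor RASGRP3 (-1.12 ± 0.21, adjusted p = 0.00304), the phospholipase PLCG2, the repressor BCL11A, the co-activator POU2AF1 and the surface proteins FCRL1 and CD22, and 12 more. The numbers that fell were 2, 12, 7 and 0 on days 13, 28, 45 and 60, where 0.0634%, 1.22%, 0.243% and 0% of all genes fell. At day 60, with 0 called by edgeR, 23 of the 36 had an unadjusted p below 0.05, where 12.7% of all genes did, and DESeq2 called 6, where it called 0.861% of all genes. With the day 0 libraries alone, 7 of the 36 fell, where 0.65% of all genes fell, and the adjusted p was 0.0725 for both EBF1 and RASGRP3. The later days fitted alone gave 0, 15, 1 and 0, where 0%, 1.52%, 0.00528% and 0% of all genes fell. The number called changed with the animals held. No share of all genes is given for the fits without 1 animal, so these counts are not compared with all genes. Without BRD AAC animal 21, 0 of the 36 were called at day 0, without healthy AAC animal 48 there was 1, without animal 49 there were 6 and without animal 31 there were 8, whereas the median log2 difference of the 9 markers stayed between -1.27 and -0.97 whichever animal was left out, and between -1.28 and -0.99 without BLK.

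Within COMBO at day 0, 14 of the 36 rose in BRD cattle and none fell, where 3.8% of all genes rose. The smallest p was that of FCRL3, a receptor of the Fc receptor-like family (2.69 ± 0.57, adjusted p = 0.00324), followed by RASGRP3, the BAFF receptor TNFRSF13C, CD40, SWAP70, POU2AF1, FCRL1 and the transcription factor SPIB, and 6 more. With the day 0 libraries alone, 3 of the 36 rose, where 0.454% of all genes rose, and FCRL3 had an adjusted p of 0.103. Each later day fitted alone gave 0, where 0% of all genes rose. None was called by edgeR on days 13, 28, 45 and 60, where 0.00528%, 0.0106%, 0% and 0% of all genes rose. DESeq2 called 0 as well, where it called 0.407%, 0.312%, 0.317% and 0.217% of all genes in either direction. On these days 5, 8, 3 and 1 had an unadjusted p below 0.05, where 8.3%, 9.08%, 3.71% and 6.02% of all genes did. Leaving out healthy COMBO animal 6 reduced the 14 to 3, leaving out BRD COMBO animal 18 to 1 and animal 54 to 2, while leaving out animal 16 raised it to 23. No share of all genes is given for these fits. The median of the 9 markers was 0.84 with and 0.61 without animal 6, and without BLK it was 0.85 and 0.61.

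The difference between the AAC and COMBO contrasts was tested directly. At day 0, 28 of the 36 were called lower and none higher, where 9.49% of all genes were called lower, with RASGRP3 at -2.10 ± 0.30 (adjusted p = 5.43e-06) and EBF1 at -2.68 ± 0.44 (adjusted p = 7.44e-05). FCRL3, POU2AF1, FCRL1, SWAP70, TNFRSF13C and CD180 followed. With the day 0 libraries alone the count was 23, where 6.33% of all genes were called lower, and the adjusted p of RASGRP3 was 0.0119. The count of 28 lay between 21 and 30 whichever AAC or COMBO animal was left out, with no share of all genes given for those fits. On days 13, 28, 45 and 60 the count was 4, 11, 0 and 2, where 0.243%, 1.3%, 0.0634% and 0.586% of all genes were called lower. Those days fitted alone gave 1, 15, 0 and 0, where 0.0158%, 1.64%, 0% and 0% of all genes were called lower. At day 45, 20 of the 36 had an unadjusted p below 0.05, where 8.6% of all genes did, and DESeq2 called 5, where it called 0.618% of all genes. Genes of other blood cells were also called in this contrast at day 0, in the direction opposite to the B genes except for plasma cells. Higher were 5 of 8 monocyte genes (median of the list 1.415 on the log2 scale), 5 of 9 erythroid genes (4.757), 3 of 16 T cell genes (0.640), 2 of 8 neutrophil genes (1.15), 1 of 7 NK cell genes (0.717), 1 of 4 eosinophil genes (1.231) and 0 of 7 platelet genes (0.914), where 6.86% of all genes were called higher, and 2 of 9 plasma cell genes were lower (-0.52). Their part in the B gene calls was not tested.

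Markers of some other blood cells also differed between the labels in these animals, the monocyte sums in the direction opposite to the B markers. Over animals, the summed level of 8 monocyte markers, of which LYZ was the most abundant, was 4676 ± 1332 CPM in BRD AAC (n = 4) and 2811 ± 171 CPM in healthy AAC cattle (n = 4), without overlap. In COMBO it was 2359 ± 385 CPM in BRD (n = 3) and 3470 ± 314 CPM in healthy cattle (n = 4), again without overlap. The sum of 16 T cell markers, led by TCF7, was 3397 ± 323 CPM in BRD AAC and 2422 ± 415 CPM in healthy AAC cattle, without overlap, and it overlapped in COMBO. The 9 erythroid genes, led by the haemoglobin gene HBA1, summed to 16330 ± 8484 CPM in BRD AAC and 5772 ± 6152 CPM in healthy AAC cattle, with overlap. Sums of the NK cell, neutrophil and platelet lists overlapped between labels in both supplements, and the eosinophil sum overlapped in AAC but not in COMBO. No marker of these lists with a row in the table was at 0 in all libraries, the listed genes GNLY (NK cell), CSF3R and FPR1 (neutrophil) and EPX and PRG2 (eosinophil) were not analysed here, and the part of the other cells in the B marker differences was not tested.

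The supplements were compared within each disease label. In healthy cattle edgeR called 0 of the 36 further B genes on any day, and DESeq2 called 1, at day 13, where it called 0.0951%, 0.623%, 0%, 0.0158% and 0.0211% of all genes from day 0 to day 60. From day 0 to day 60, 17, 4, 3, 1 and 0 of the 36 had an unadjusted p below 0.05, where 7.23%, 9.22%, 6.32%, 4.84% and 3.97% of all genes did. The share of all genes called by edgeR was 0.0158% at day 0, 1.07% at day 13 and 0.0106% on each later day. In BRD cattle 21, 7, 5, 4 and 3 of the 36 were called, where 11.8%, 4.46%, 0.776%, 0.269% and 1.12% of all genes were called. With the libraries of each day fitted alone, 17, 7, 7, 0 and 0 were called, where 4.43%, 1.83%, 0.898%, 0.0158% and 0% of all genes were, so the calls at days 45 and 60 were lost. RASGRP3 had the smallest adjusted p at day 0 (0.000156). At day 0 the mean CD79B of the BRD groups was lowest in AAC, whose 4 animals reached at most 168 CPM, and highest in COMBO, whose 3 animals started at 294 CPM. Over the 5 days the 40 calls in BRD cattle became 16 without BRD AAC animal 21 and 25 without BRD AAC animal 9. No share of all genes is given for these 2 fits.

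The change over time was measured within animals, with animal as a block. The members differed in their course. CR2 was higher than on day 0 by 0.26 ± 0.08 (log2, SE) at day 13, 0.50 ± 0.08 at day 28, 0.61 ± 0.08 at day 45 and 0.74 ± 0.08 at day 60, and it was higher at day 60 in 24 of 26 animals. BANK1 was higher by 0.09 ± 0.08, 0.24 ± 0.08, 0.43 ± 0.08 and 0.46 ± 0.08, and in 22 of 26 animals at day 60. FCRLA was at -0.14 ± 0.11 on day 13 and at 0.36 ± 0.11 on both day 45 and day 60. The receptor chains CD79A and CD79B stayed closer to day 0, at 0.09 ± 0.06 and 0.11 ± 0.09 on day 60. MS4A1 stood at 0.18 ± 0.08 on day 60, higher in 17 of 26 animals. PAX5 was highest at day 45, at 0.30 ± 0.08, and STAP1 stayed at or below 0.10 on every day. BLK stood at 0.14 ± 0.06 on day 13, where only CR2 was higher among the 9, at 0.07 ± 0.06 on day 28 and at -0.01 ± 0.06 on day 60. At day 45 it was at -0.29 ± 0.06, the only one of the 9 under 0, and lower in 21 of 26 animals. As medians, the 9 stood at 0.05, 0.15, 0.19 and 0.11 on days 13, 28, 45 and 60, and without BLK at 0.05, 0.15, 0.24 and 0.15. Without BRD INR animal 43 the medians at days 45 and 60 were 0.15 and 0.08, and CR2 was at 0.72 and BANK1 at 0.41 on day 60. Without the day 60 library of BRD INR animal 40 they were at 0.76 and 0.47. Without healthy COMBO animal 6, the lowest at day 0, the medians from day 13 to day 60 were 0.02, 0.10, 0.11 and 0.06.

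**Figure D3:**
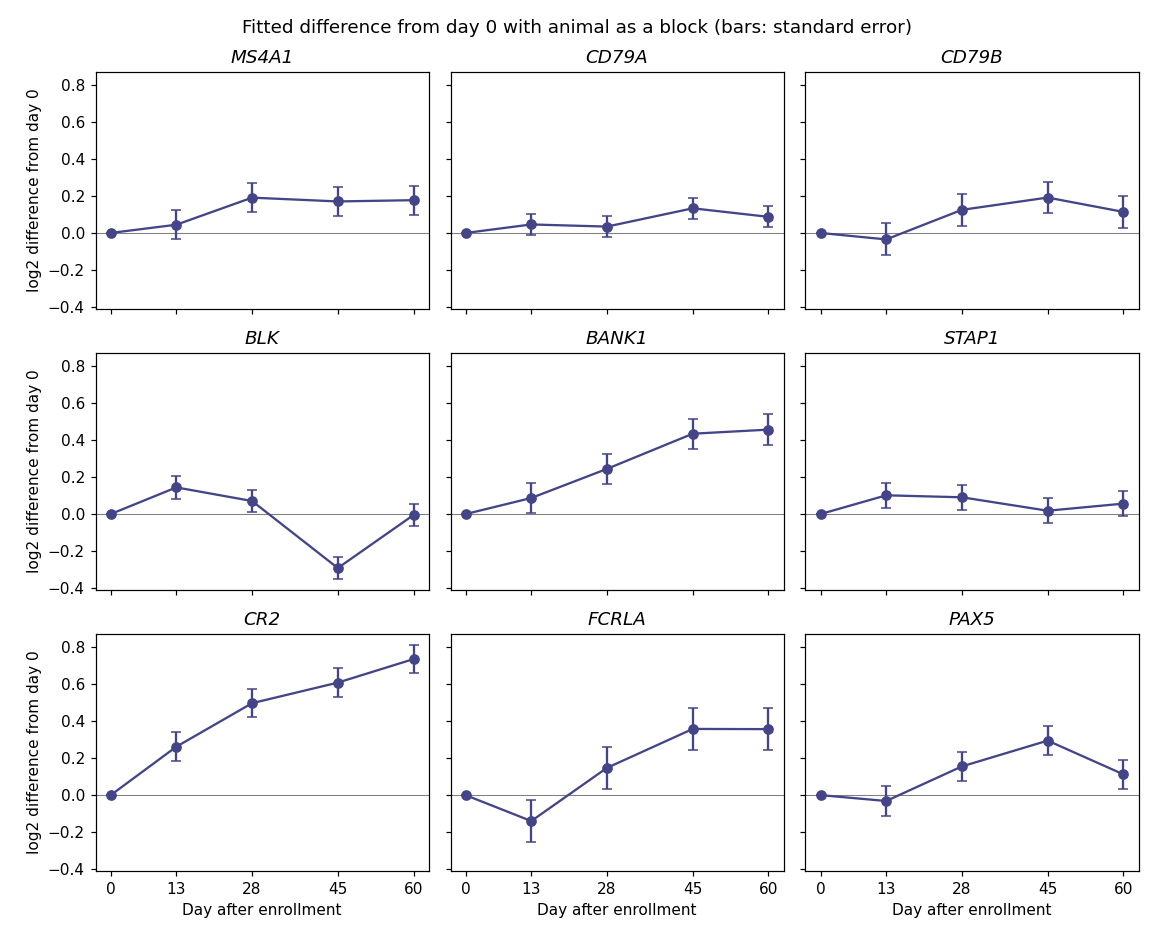
Fitted log2 difference from day 0 (y axis) by day after enrollment (x axis) for each marker gene, with animal as a block and healthy and BRD cattle weighted equally. Points are estimates and bars are standard errors, and day 0 is set to 0. CR2 climbs to 0.74 at day 60, BANK1 to 0.46, and BLK dips to -0.29 at day 45.

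Of the 36 further B genes, 5 rose and 5 fell at day 13, 15 rose and 5 fell at day 28, 20 rose and 2 fell at day 45, and 14 rose and 2 fell at day 60 (edgeR, adjusted p below 0.10). Among all genes, 16.92% rose and 15.31% fell at day 13, 18.51% and 17.33% at day 28, 15.30% and 14.60% at day 45, and 16.61% and 15.94% at day 60. CD40, the receptor for T cell help, rose at each bleed, by 0.33 ± 0.06 at day 13 and 0.43 ± 0.06 at day 60 (adjusted p = 6.51e-08), and in 23 of 26 animals. CD72, an inhibitory co-receptor, rose by 0.31 ± 0.06, 0.41 ± 0.06, 0.31 ± 0.06 and 0.32 ± 0.06. COBLL1 (0.56 ± 0.11 at day 60), FCRL5 (0.35 ± 0.08), the phosphatase PTPN6 (0.18 ± 0.04) and the transcription factor POU2F2 (0.23 ± 0.06) also rose. BTLA, an inhibitory receptor shared with T cells, fell by 0.49 ± 0.10 at day 28 and 0.36 ± 0.10 at day 60, and CXCR5, which guides B cells to follicles, fell by 0.32 ± 0.10 at day 60. At day 45, 9 of 11 receptor signalling genes, 6 of 8 transcription factors, 3 of 11 surface receptors and 2 of 6 further genes had risen, and the receptors BTLA and CXCR5 had fallen. Among the genes that had risen, the correlation with the mean z-score of the 9 ran from 0.102 for IRF8 to 0.966 for BCL11A. Differences between these lists were not tested. The call of CXCR5 at day 45 was lost when any of 13 animals was left out. A difference between healthy and BRD cattle in the change from day 0 was called for 0 of the 36 in edgeR's test of the interaction on days 13, 28, 45 and 60, where 0% of all genes were called, and 0, 1, 0 and 0 of the 36 had an unadjusted p below 0.05, where 3.27%, 4.56%, 4.23% and 3.15% of all genes did.

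Other cell lists moved over the same days. The percentages of all genes that rose and fell on each day, given above, apply to the counts of these lists as well. The summed monocyte markers were 4408 ± 1917 CPM at day 0 and 2845 ± 788 CPM at day 60 (SD, n = 26 each), and 7 of 8 fell at day 60. The neutrophil sum was 3245 ± 1867 CPM at day 0 and 1865 ± 404 CPM at day 60, with 5 of 8 genes down. The erythroid sum was 598 ± 1375 CPM at day 0, 14090 ± 22250 CPM at day 13 (n = 25), 4315 ± 5408 CPM at day 28, 10160 ± 14750 CPM at day 45 and 2728 ± 3315 CPM at day 60. Its medians were 227 CPM, 6096 CPM, 2404 CPM, 4548 CPM and 1929 CPM, and the highest library of day 13 reached 84840 CPM. Of 7 NK cell genes, 3 fell at day 13, 5 at day 28, 4 at day 45 and none at day 60, and 2, 1, 2 and 2 rose. Of 7 platelet genes, 6, 5, 4 and 5 rose from day 13 to day 60 and none fell. The T cell sum was 2918 ± 534 CPM at day 0 and 2797 ± 627 CPM at day 60. Of 16 T cell genes, 2, 1, 1 and 0 rose and 2, 2, 2 and 1 fell from day 13 to day 60. For the plasma cell list, whose most abundant gene JCHAIN joins the subunits of polymeric antibody, 4 of 9 genes rose at day 13, 6 rose at day 28 and none rose at day 45 or day 60, while PRDM1, a transcription factor of plasma cells, fell on each of these days. The part of these shifts in the change of the B markers was not tested.

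The 9 genes did not vary as one. Over all libraries the log2 CPM values of MS4A1, CD79A, CD79B, CR2, BANK1, FCRLA and PAX5 correlated with each other with Pearson r between 0.628 and 0.923 over 21 pairs, and between 0.319 and 0.847 once each animal's mean was removed. STAP1 was less close to these 7, at 0.377 to 0.621. BLK was not close to any of the others, at -0.296 to 0.055, so that the data went against calling BLK a B cell marker in these libraries. The genes closest to BLK, looked up after this was seen, were SOX13 (r = 0.881), a transcription factor of gamma-delta T cells, and WC1.3 (r = 0.828), one of the WC1 receptors of bovine gamma-delta T cells, a multigene family whose reads may be shared. These libraries share animals and library composition, and the correlations are descriptions.

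**Figure D4:**
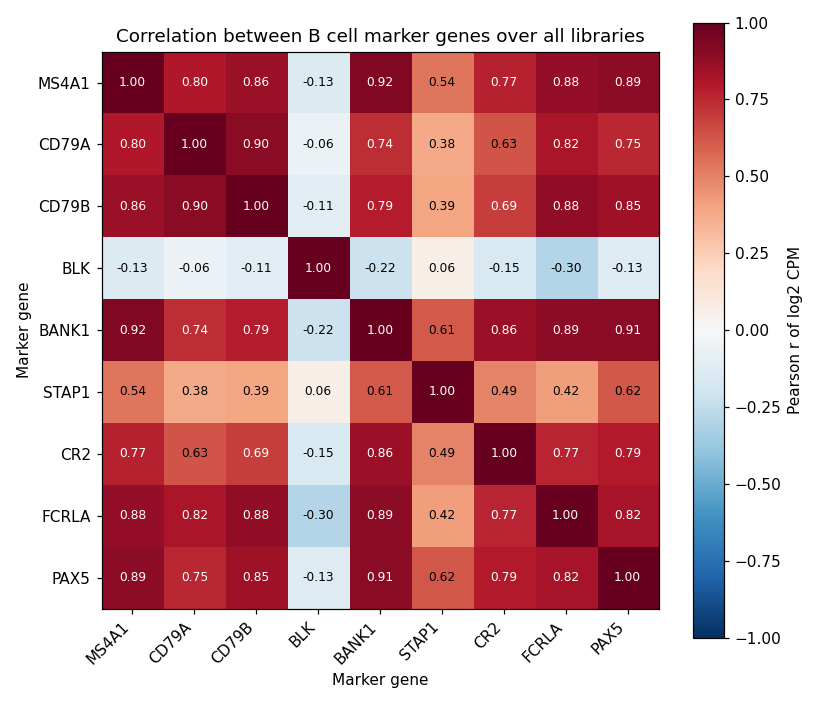
Pearson correlation of log2 CPM between each pair of the 9 marker genes over all libraries, with the colour scale from -1 (blue) to 1 (red). The block of high values excludes BLK, whose row runs from -0.30 to 0.06, and STAP1 is intermediate.

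Much of the variation was between animals. The share of the variance of log2 CPM that lay between animals ran from 57.6% for CR2 to 78.1% for CD79B, with 74.8% for MS4A1 and 75.2% for PAX5. These shares take in the differences of label and supplement and are not corrected for the number of animals. The share for all genes is not given, so the 9 are not compared with other genes here. Over 26 animals the mean z-score of the 9 at day 0 had a Pearson r of 0.558 and a Spearman rho of 0.614 with that at day 60. The highest animal means were those of healthy INR animal 10 (1.15), healthy AAC animal 48 (1.09) and BRD INR animal 43 (0.90), and the 4 lowest of the 26 were the 4 BRD AAC animals.

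Among genes outside all lists, the 10 most like the mean z-score of the 9 over all libraries were LOC112441478 (r = 0.953), WDFY4 (0.932), ZNF608 (0.924), HDAC9 (0.923), HABP4 (0.922), ARHGAP27 (0.921), PRAG1 (0.912), NAV3 (0.910), FFAR3 (0.907) and BOLA-DOA (0.907). This score included BLK. With BLK left out of it, the r of these genes lay between 0.908 (FFAR3) and 0.954 (WDFY4), and only some of them remained among the 10 most like. BOLA-DOA encodes a subunit of a class II chaperone of antigen presentation, HDAC9 a histone deacetylase and FFAR3 a receptor for short-chain fatty acids. Within the B gene lists BCL11A (0.966), EBF1 (0.949) and SPIB (0.916) were closest, while FCER2, the low-affinity receptor for IgE (-0.282), and P2RX5 (-0.241) ran against the rest. The summed levels of the B lists followed the 9 genes, with r of 0.838 for receptor signalling (led by LYN), 0.924 for transcription factors (IKZF3), 0.857 for surface receptors (CD37) and 0.810 for the further genes (AFF3).

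Summed markers of other cells mostly ran against the 9 genes. The correlation of the log2 sum with the mean z-score was -0.765 for monocytes, -0.627 for T cells, -0.552 for neutrophils, -0.470 for NK cells (led by PRF1), -0.341 for eosinophils (SIGLEC8) and -0.241 for erythroid cells. It was 0.026 for platelets (TUBB1) and 0.018 for plasma cells. CPM are shares of one total, so sums of different cells share it.

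**Figure D5:**
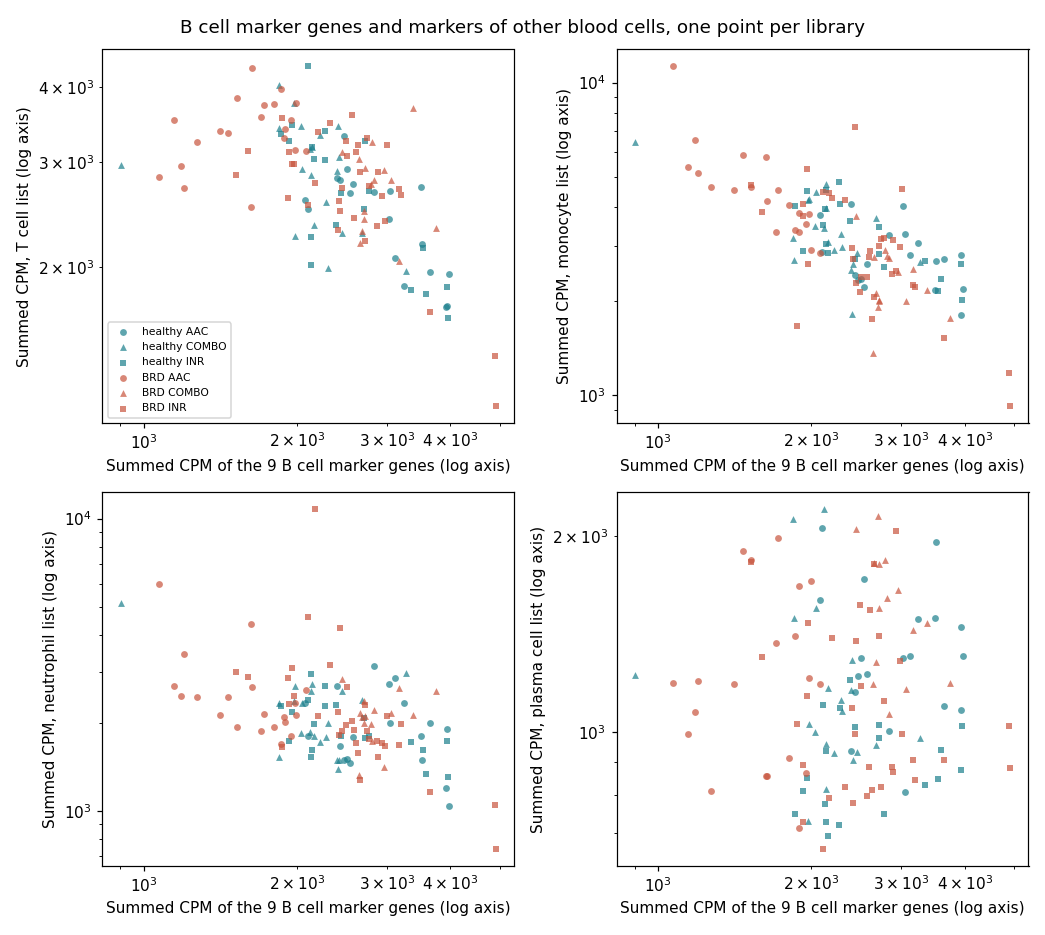
Summed CPM of the T cell, monocyte, neutrophil and plasma cell lists (y axes, log scale) against the summed CPM of the 9 B cell marker genes (x axes, log scale), with 1 point per library. Colour gives the disease label (healthy teal, BRD red) and shape the supplement. Monocyte and T cell sums are lower where B marker sums are higher, BRD AAC libraries (red circles) lie to the left, and the plasma cell panel shows no slope.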

How the data were processed

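Whole blood RNA was sequenced in 59 libraries of healthy and 70 of BRD cattle, from 26 animals. The authors deposited whole-number counts per gene, which per the submitters' notes and the methods of the study were made by FastQC 0.11.9, Trimmomatic 0.39, HISAT2 (ARS-UCD1.3), StringTie 2.2.0 and its prepDE script, which derives counts from coverage and a read length of 150 bases. Levels are CPM with TMM factors. The main fit used edgeR 4.0.16 (R 4.3.3) on 18937 genes that passed filterByExpr, with quasi-likelihood F-tests, a common dispersion (biological coefficient of variation 39%, or 28.4% with animal as a block), Benjamini-Hochberg adjustment over all genes and a threshold of 0.10. Groups were one mean per label, supplement and day. For days, animal was a block. Libraries of 1 animal deviated from their group means together (mean r over genes 0.365, lowest animal 0.272, other animals -0.02), as the shared individual in the labels implies. Log2 CPM used a prior count of 2. DESeq2 1.42.0, other normalizations, filters and thresholds, left-out animals and, added after seeing the data, the libraries of each day fitted alone were alternatives. The procedure was tested on simulated data.

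The 9 members and all lists (4 of B lineage genes, plasma cell, T cell, NK cell, monocyte, neutrophil, eosinophil, platelet, erythroid) were chosen with earlier results of these data known, and BRD against healthy within AAC and COMBO was examined after seeing the data. Named beside the members are the called B lineage genes, at most 8 of smallest p in a comparison, the 10 genes outside all lists most like the members, and the most abundant gene of each other list. Some genes that these rules name are not reported here. TCL1A, a B lineage gene with almost no counts, was not tested, and NIBAN3 was not analysed here. Gene lengths were not used, so levels are not compared between genes per length. No sequences or coordinates are printed, as no genome of the build was used here.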

Additional observations from a re-analysis of the deposited data

Results flagged for a closer look

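In each group of 4 to 7 animals on 1 day, the library farthest from the others was compared with the spread of its group for each of the 9 genes (216 sets of values, Dixon's ratio at the 95% level), and 17 stood apart. Chance alone flags about 1 in 20 independent sets, but these sets share animals and correlated genes, and the 9 genes were chosen on these levels, so nothing is read from the number and the values are listed as a description. Several came from the same animals. BRD AAC animal 21 was low for MS4A1 at day 60 (253.6 CPM against 478.5 for the next animal), PAX5 at day 0 (57.66 CPM) and CR2 at day 0 (34.02 CPM) and day 60 (83.63 CPM). BRD INR animal 43 was high for MS4A1 at day 28 (1318 CPM), BANK1 at day 45 (622.2 CPM) and day 60 (662.1 CPM) and FCRLA at day 45 (278.5 CPM) and day 60 (264.9 CPM). Healthy INR animal 10 was high for CR2 at day 28 (262.5 CPM), BANK1 at day 0 (328.3 CPM) and day 60 (471.3 CPM) and FCRLA at day 45 (209.0 CPM). Healthy COMBO animal 3 was low for MS4A1 at day 13 (397.1 CPM) and CR2 at day 28 (114.8 CPM). Healthy INR animal 50 was high for BLK at day 13 (153.7 CPM), and BRD AAC animal 41 was high for STAP1 at day 13 (34 CPM).

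In linear CPM, every BRD animal mean lay below the healthy ones in AAC and above them in COMBO for 5 of the 9 genes, where 1.2% of all genes did. On the log2 scale it was 7 of the 9, with BANK1 and FCRLA added, where 1.08% of all genes did. For the 5, the ratio of BRD to healthy means in AAC and COMBO was 0.4692 and 1.379 for MS4A1, 0.670 and 1.24 for CD79A, 0.4126 and 1.5 for CD79B, 0.4363 and 1.325 for PAX5, and 0.5078 and 1.249 for CR2. For these genes the difference was not tested, since they were chosen on these levels. For the 36 further B lineage genes the test of the difference between AAC and COMBO called 28, 4, 11, 0 and 2 lower from day 0 to day 60, where 9.49%, 0.243%, 1.3%, 0.0634% and 0.586% of all genes were called lower. With the libraries of each day fitted alone, 1 per animal, it called 23, 1, 15, 0 and 0, where 6.33%, 0.0158%, 1.64%, 0% and 0% of all genes were, so the calls at day 60 were lost.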

How the results depend on the processing

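The median of the 9 markers in BRD minus healthy was below 0 on all 5 days under every tool, normalization, filter and dispersion tried and lay between -0.31 and -0.07 with any animal left out (lowest to highest by day: -0.25 to -0.10, -0.21 to -0.07, -0.25 to -0.12, -0.27 to -0.10 and -0.31 to -0.16). It moved to -0.74, -0.57, -0.62, -0.56 and -0.52 from the first to the last day in the pens that held both labels, with pen as a term. There 16 instead of 0 further B genes were called over the 5 days. That fit changed the animals as well as the model, since all COMBO cattle and the INR cattle of the remaining pen were left out. The move is therefore not put down to pen. With the replicate block, which measures the change from day 0 in BRD minus healthy, the marker median was 0.011, -0.03, -0.0042 and -0.041 on days 13, 28, 45 and 60, with 0 genes called. Leaving out 1 animal left this count between 0 and 1 in BRD against healthy, between 0 and 1 for the supplements in healthy cattle (DESeq2 called 1) and between 16 and 52 for the supplements in BRD cattle, where the main count of 40 became 26 at a threshold of 0.05 and 26 with the labels fitted separately. With each day fitted alone the latter count was 17, 7, 7, 0 and 0 from day 0 to day 60.

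For days, the counts without the replicate block were 2, 4, 9 and 7 higher and 0, 2, 1 and 1 lower on days 13, 28, 45 and 60, with medians of the 9 markers of 0.019, 0.14, 0.20 and 0.14. A separate fit of healthy cattle gave 2 higher and 2 lower at day 13, 6 and 5 at day 28, 14 and 1 at day 45, and 10 and 0 at day 60. A separate fit of BRD cattle gave 3 and 0, 9 and 2, 13 and 0, and 6 and 2. The shares of all genes called in these alternative fits are not given here. Their counts are therefore not compared with all genes. A threshold of 0.05 gave 3 lower at day 13 and 1 at day 45, and no scaling factors gave 3 lower at days 13 and 28. With 1 animal left out the counts were 5 to 6, 13 to 16, 18 to 21 and 13 to 16 higher and 3 to 5, 3 to 5, 1 to 2 and 2 lower, and the marker medians 0.015 to 0.077, 0.10 to 0.18, 0.11 to 0.22 and 0.064 to 0.16, each lowest without healthy COMBO animal 6. The 5 called lower became 3 at day 13 without animal 18, 23, 50 or 54 and at day 28 without animal 7 or 48, and at day 45 leaving out any of 13 animals left 1 of 2.

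Within AAC, the count of further B genes called lower was 0 to 20 at day 0 and 1 to 50 over the 5 days with 1 animal left out, against 19 and 40. It was 20 over the 5 days at a threshold of 0.05 and 26 among genes with at least 10 counts. With the libraries of each day fitted alone it was 7, 0, 15, 1 and 0 from day 0 to day 60, 23 in all. The marker median at day 0 was -1.27 to -0.97. Within COMBO the count called higher was 1 to 23 at day 0 and over the 5 days, and the median 0.61 to 1.02. It was 3 at day 0 and over the 5 days with each day fitted alone. For the difference between AAC and COMBO at day 0 it was 21 to 30, and with each day fitted alone 23, 1, 15, 0 and 0 from day 0 to day 60. With 1 animal left out, BRD animal means lay below every healthy mean for 8 markers in AAC and above for 7 to 8 in COMBO. They did so for 24 to 26 and 11 to 21 of the further B genes. The shares of all genes in the same directions were 9.83% to 13.5% in AAC and 5.73% to 9.56% in COMBO. On days 13 to 60 alone the COMBO counts were 2 markers and 4 further genes, where the share of all genes was 2.38%. Without BLK, 6 of the 10 most like genes were shared.

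Groups of 3 to 7 animals limit every comparison within a supplement, the added fits were chosen after seeing the data, and leave-one-out fits kept the dispersion of all libraries. Libraries held at least 31613545 counts and STAP1, the marker with the fewest counts, had a mean of 29.99 CPM. The part of counting error in the calls was not tested separately.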
